A study of Mus musculus with 31 samples.

Results

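Thymic tumors with the highest Lyl1 signal were compared with those with the lowest, 10 of the 31 arrays of a mouse series read on a whole-genome expression array. The series held tumors that arose after the alkylating carcinogen ENU (N-ethyl-N-nitrosourea, 100 mg/kg) and untreated thymi, all from C57BL/6 mice. Their NDR1 genotype was labelled NDR1+/+ (WT), NDR1+/- (HT) or NDR1-/- (KO), NDR1 being the kinase made from Stk38. Of the 19 tumors, KO tumors 4 and 6 and HT tumors 1 and 3, which carried a strong B cell signal, were left out. The other 15 were ranked by log2(intensity + 1) of Lyl1, and the 5 highest, called Lyl1-high, were set against the 5 lowest, called Lyl1-low. The groups were thus made from measured values and are not treatments or genotypes.

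The Lyl1-high group was 3 KO tumors, 1 HT tumor and 1 WT tumor, all female and ENU-treated. The Lyl1-low group was 2 KO tumors, 1 HT tumor and 2 WT tumors, all ENU-treated, of which KO tumor 2 was from a male. The middle 5 (3 HT and 2 WT, with HT tumor 4 from a male) entered the fit for the spread between tumors. The 12 untreated thymi, 4 of each genotype with equal numbers of each sex, served as a scale. Tumors were taken when they developed or at the fixed end of the observation period, and flash frozen, so each piece held whatever cells the mass held. Animal ages are not given by the labels. The sample titles speak of tumor cells and thymocytes, while the tissue label is thymus, and the labels do not say whether each array was a separate animal. The p-values below therefore measure the spread between these arrays, and the number of arrays limits every value. In such bulk samples, fewer cells of a type and less RNA per cell cannot be told apart.

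LYL1 is a basic helix-loop-helix transcription factor and a close relative of TAL1. It binds DNA as a partner of E proteins (Tcf3, Tcf12) and works in complexes with the adaptors LMO1 or LMO2 and LDB1 and with GATA factors. It is active in blood stem cells and early thymic progenitors, is silenced as thymocytes commit to the T lineage, and is an oncogene in T cell acute lymphoblastic leukemia. Its promoter is known for control by Ets and GATA factors.

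The promoter is shown because all the groups rest on this single gene. Lyl1 lies on the plus strand of chromosome 8. The 250 bases before its start, from RefSeq at GRCm38.p6, are chr8:84701207-84701456, and the capitals mark the Ets core motif GGAA on either strand (TTCC where it lies on the minus strand).
Lyl1 promoter: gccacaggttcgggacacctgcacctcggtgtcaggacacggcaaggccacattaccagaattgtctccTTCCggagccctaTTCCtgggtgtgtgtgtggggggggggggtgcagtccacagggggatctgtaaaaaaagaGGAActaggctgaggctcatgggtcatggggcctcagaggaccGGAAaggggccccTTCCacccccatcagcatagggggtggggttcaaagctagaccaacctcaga
These letters hold GGAA or TTCC 5 times. Of 32851 mouse promoters of the same length, 93.4% hold it at least once, the median is 3 and 18.0% hold at least 5. GATA or its reverse TATC occurs 0 times here and in 53.6% of promoters. The E-box form CAGNTG or its reverse CANCTG occurs 1 time here and in 44.8% of promoters. A match of letters is a description of this window and shows no binding.

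Lyl1 was read by 1 probe set. In the Lyl1-high tumors its intensity was 2344 in KO tumor 3, 2043 in WT tumor 2, 1014 in HT tumor 7, 714 in KO tumor 7 and 422 in KO tumor 1. In the Lyl1-low tumors it was 103 in KO tumor 5, 72.7 in WT tumor 4, 72.2 in WT tumor 1, 30.3 in KO tumor 2 and 22.5 in HT tumor 2. These values chose the groups, so their difference (4.35 on the log2 scale) is a description with no test. The lines fell between KO tumor 1 at 422 and HT tumor 4 at 367, a gap of 0.20 log2 units, and between WT tumor 3 at 226 and KO tumor 5 at 103, a gap of 1.13. The upper line thus parted tumors of nearly the same level.

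On the log2(intensity + 1) scale Lyl1 averaged 10.08 ± 1.04 in Lyl1-high tumors, 8.25 ± 0.29 in the middle tumors and 5.72 ± 0.91 in Lyl1-low tumors (SD, n = 5 each), against 4.76 ± 0.34 in thymi (SD, n = 12). Thymi ran from 16.2 to 40.7 in intensity, and 17 of the 19 tumors lay above the highest thymus. The exceptions were KO tumor 2 and HT tumor 2, both Lyl1-low. The 4 tumors left out of the ranking had Lyl1 intensities of 4078, 2032, 1453 and 651, within or above the Lyl1-high range.

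**Figure D1:**
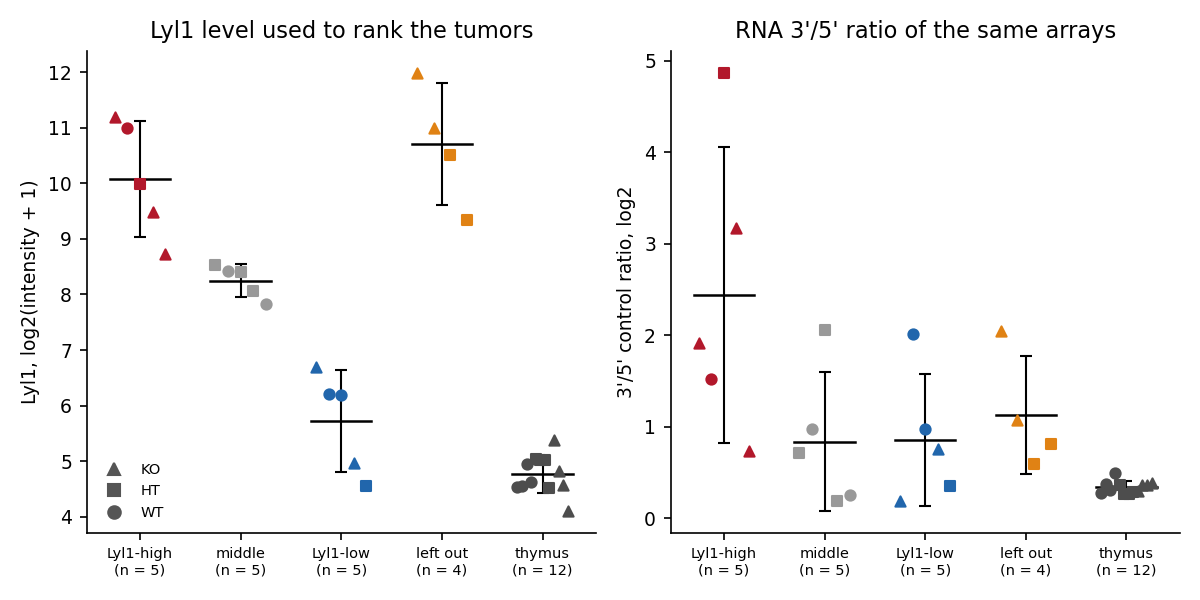
Left, Lyl1 as log2(intensity + 1) in every array, by rank group, with the 4 tumors left out and the 12 thymi. Right, the log2 3'/5' control ratio of the same arrays, where a high ratio marks degraded RNA. Points are arrays (shape gives the labelled genotype), lines and bars the mean and SD. Lyl1-low tumors reach down into the thymus range, and HT tumor 7 and KO tumor 7, both Lyl1-high, have the 2 highest 3'/5' ratios.

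All 10 tumors carried T lineage RNA. Cd3e, a chain of the T cell receptor complex, ranged over 11.80 to 13.02 on the log2 scale in Lyl1-high tumors, 12.10 to 12.66 in Lyl1-low tumors and averaged 12.76 in thymi. Cd3d, Cd3g and Cd247, chains of the same complex, lay below every thymus in all 10 tumors. The mean over the T cell receptor and signalling list ran from 10.48 to 11.02 in Lyl1-high tumors and 10.14 to 11.36 in Lyl1-low tumors. In thymi it ran from 11.97 to 12.13, above all 10 tumors. Arrays were alike in scale, with a 75th percentile of intensity of 334 in every array, and no pair of arrays held identical values. Stk38 averaged 11.74 ± 1.51 in Lyl1-high tumors and 10.65 ± 1.51 in Lyl1-low tumors (log2 scale, SD, n = 5 each), with a fitted difference of 0.79 (limma, adjusted p = 0.657). KO tumor 3, at 12.84, had more Stk38 signal than the WT tumors of both groups, 12.42, 12.47 and 11.42. The sources used here do not give the deleted part of the gene, so this probe set does not check the labels, and genotypes are used as labelled. Stk38l, the gene of the related kinase NDR2, averaged 5.20 ± 0.92 in Lyl1-high tumors and 6.05 ± 0.47 in Lyl1-low tumors (adjusted p = 0.493).

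RNA quality was uneven over the groups. The array's actin and Gapdh controls give a 3'/5' ratio, which grows as RNA degrades. On the log2 scale it was 1.91, 1.52, 4.87, 3.17 and 0.73 in the Lyl1-high tumors, in order of falling Lyl1. In the Lyl1-low tumors it was 0.19, 2.01, 0.97, 0.75 and 0.35 in the same order. The groups overlapped, with 2 Lyl1-high tumors above every Lyl1-low tumor, and the means were 2.44 ± 1.62 and 0.85 ± 0.72 (SD, n = 5 each), a difference of 1.59 (2-sided exact permutation test, p = 0.0873). Over the 15 ranked tumors Lyl1 and the ratio correlated with Pearson's r = 0.491 and Spearman's rho = 0.486, given as a description. The counts over all genes, the mitosis and replication counts and the gene that passed are given below with this ratio in the model as well, while the other counts are without it.

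Of the 13643 genes tested beside Lyl1, 1 passed an adjusted p of 0.05, which is 0.00733% of them, with 0 higher and 1 lower in Lyl1-high tumors. The next smallest adjusted p was 0.239. At an unadjusted p under 0.05 there were 831 genes higher (6.09%) and 620 lower (4.54%). With the 3'/5' ratio in the model these counts were 302 and 433. All 5 Lyl1-high tumors lay above all 5 Lyl1-low tumors for 127 genes (0.931%) and below them for 67 (0.491%), 194 in all (1.42%). Differences are high minus low on the log2(intensity + 1) scale, adjusted for sex, and so can depart from the difference of the means. The sex term rests on the 2 males among the 15 ranked tumors, KO tumor 2 (Lyl1-low) and HT tumor 4 (middle). The median difference over all genes was 0.06.

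Ppp1r1b, the gene that passed, encodes an inhibitor of protein phosphatase 1 known from dopamine signalling in neurons. It measured 3.58, 3.65, 3.72, 5.30 and 4.84 in the Lyl1-high tumors, against 6.71, 7.07, 6.99, 6.80 and 6.50 in the Lyl1-low tumors (log2 scale). The groups did not overlap, and the Lyl1-low tumors lay close together. It was lower by 2.62 in Lyl1-high than in Lyl1-low tumors (SE 0.34, adjusted p = 0.0397, limma), with means of 4.22 ± 0.80 in Lyl1-high tumors and 6.82 ± 0.23 in Lyl1-low tumors (SD, n = 5 each). The middle tumors (4.47 ± 0.33, n = 5), the tumors left out (mean 3.73, n = 4) and the thymi (3.89 ± 0.24, n = 12) all lay on the Lyl1-high side. Those means and the Lyl1-high mean lay not far above the filter on low values, 3.65. All 5 Lyl1-low tumors exceeded the highest thymus, 4.38, as did 2 of the 5 Lyl1-high tumors. The call was not robust. The adjusted p (limma) was 0.331 in a fit of the 10 arrays alone and 0.153 with the 3'/5' ratio in the model. It was 0.0305 without HT tumor 7 and KO tumor 7 together, the Lyl1-high tumors of highest ratio, and 0.0128 without the sex covariate. When any of 8 of the 10 tumors was left out it lay above the threshold, with values in the closing section.

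The other genes of smallest p did not pass and are given as values. Gpx7, a glutathione peroxidase of the endoplasmic reticulum, measured 5.09, 3.41, 3.71, 4.93 and 3.58 in Lyl1-high tumors, against 8.67, 6.46, 8.78, 9.25 and 7.78 in Lyl1-low tumors, with a fitted difference of -4.00 (SE 0.66, adjusted p = 0.239). Mixl1, a homeobox factor of early mesoderm and endoderm, measured 3.24 to 3.52 in Lyl1-high tumors, against 4.26, 6.26, 7.0, 7.30 and 5.44 in Lyl1-low tumors (difference -2.42, SE 0.42, adjusted p = 0.269). As for Ppp1r1b, neither gene overlapped between the groups, the thymus means were low (Gpx7 3.60, Mixl1 3.24), and every Lyl1-low tumor stood above the highest thymus.

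The remaining 7 of the 10 lower genes of smallest p had adjusted p values of 0.409 or 0.464. They were Nsmce1 (difference -2.41), a subunit of a chromosome maintenance complex, Sqor (-1.94), a mitochondrial sulfide oxidase, Cmtm8 (-1.64), Syngr1 (-2.86), a vesicle membrane protein, Slc6a13 (-2.89), a GABA transporter, Tpmt (-0.99), a thiopurine methyltransferase, and Lrrc2 (-1.34). Nsmce1 and Sqor differed from the genes above in their thymus level: Nsmce1 averaged 8.35 in Lyl1-high tumors and 11.52 in thymi, and Sqor 7.11 in Lyl1-high tumors and 9.35 in thymi.

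Among genes with a positive difference Usp20, a deubiquitinating enzyme, had the smallest p. It measured 9.15, 10.10, 8.65, 7.99 and 8.55 in Lyl1-high tumors, against 7.23, 7.32, 5.92, 5.81 and 6.08 in Lyl1-low tumors (difference 2.20, SE 0.40, adjusted p = 0.310). Naip5, a cytosolic sensor of bacterial flagellin in mice, measured 10.27, 12, 10.43, 11.91 and 10.34 in Lyl1-high tumors, against 7.38, 5.58, 8.52, 8.55 and 9.64 in Lyl1-low tumors (difference 3.24, SE 0.68, adjusted p = 0.409). Both were free of overlap between the groups. For Naip5 all 5 Lyl1-high and 4 of 5 Lyl1-low tumors were above the highest thymus, 5.97.

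Nfkb2, the precursor of an NF-kappaB subunit, measured 9.82, 7.25, 8.56, 7.58 and 7.95 in Lyl1-high tumors, against 6.10, 7.12, 5.68, 4.94 and 5.86 in Lyl1-low tumors (difference 2.25, adjusted p = 0.409), again with no overlap. Stk10, a serine/threonine kinase of lymphocytes, had the narrowest difference of the 10, 1.01, with 10.78 ± 0.24 in Lyl1-high tumors and 9.79 ± 0.35 in Lyl1-low tumors (SD, n = 5 each). The others were Khnyn (1.35), a cofactor of an antiviral RNA-binding protein, Stoml1 (1.36), Wdr13 (1.11), Vps37a (1.22), a subunit of the endosomal sorting machinery, Gys1 (1.13), the muscle form of glycogen synthase, and Tecpr1 (1.54), which acts in autophagy. All of these had an adjusted p of 0.409.

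Of these 20 genes, chosen by their p, 16 did not overlap between the groups, beside 1.42% of all genes, and all 20 had a middle-group mean between the other means, beside 46.8% of all genes. Since the p chose them, nothing is read from these counts. For 12 of them the array has other probe sets. Those of Tecpr1 gave 1.61 and 0.85 and that of Nfkb2 1.08, whereas another Wdr13 probe set gave -0.17 and one of Vps37a gave -0.46. The 3 others of Usp20 gave 0.12, 0.35 and 0.65, well under its 2.20. Those of Khnyn gave 0.58 and 0.14 and that of Gys1 0.11, also under the values above. Among genes with a negative difference, others of Sqor (0.08), Tpmt (0.02 and 0.08), Nsmce1 (0.10) and Syngr1 (-0.09) were near 0 or opposite, those of Sqor and Nsmce1 from probe sets under the filter. Another Nsmce1 probe set, with a mean of 10.4, gave -0.71. Further ones of Tpmt (-0.21), Syngr1 (-0.22, under the filter) and Lrrc2 (-0.38) were also negative. The 4 tumors left out of the ranking took no part in this choice. In all 4 the signal was on the Lyl1-high side of the midpoint between the group means for 13 of the 20 genes (65%), against 29.3% of all genes tested and 41.9% of the genes at an unadjusted p under 0.05. The 13 include 7 of the 10 lower genes. For those 7 the thymi, with low Lyl1, also averaged on the Lyl1-high side, from 3.24 (Mixl1) to 5.54 (Syngr1). That side is thus not particular to arrays of high Lyl1 for these genes. The 4 left-out tumors had high Lyl1 and a high B cell signal together, and they differed from the Lyl1-high tumors in other lists as well. Their means were 9.73 against 5.13 for NK and cytotoxic markers, 11.21 against 8.73 for mature T cell genes and 8.86 against 10.85 for mitosis genes. Some lists were close, such as endothelial markers, 5.22 against 5.26. Which of these traits the genes follow was not tested.

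**Figure D2:**
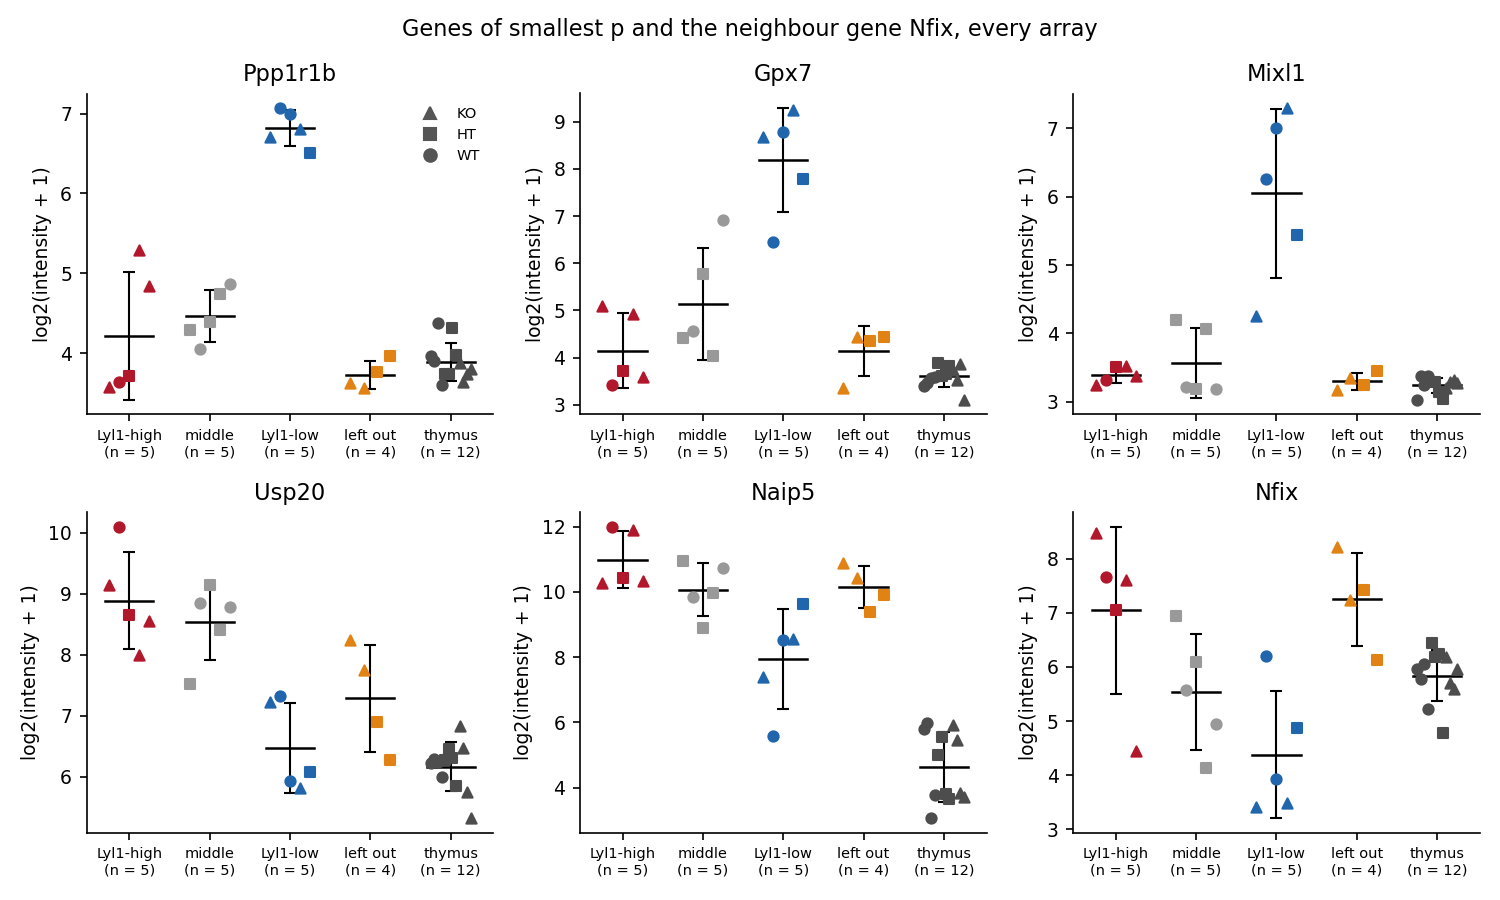
Ppp1r1b, Gpx7, Mixl1, Usp20, Naip5 and Nfix as log2(intensity + 1) in every array, by rank group, with the tumors left out and the thymi; lines and bars are the mean and SD. For Ppp1r1b, Gpx7 and Mixl1 all 5 Lyl1-low tumors stand above every thymus, and for Naip5 all tumors but a single Lyl1-low one do.

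None of the partners of LYL1 that were tested passed the threshold. Of the 22 genes listed for the LYL1, TAL and LMO complex, 20 were tested and 0 reached even an unadjusted p of 0.05, with a median difference of -0.04 beside 0.06 for all genes. Among the E proteins Tcf3 averaged 10.51 ± 0.44 in Lyl1-high tumors and 10.55 ± 0.33 in Lyl1-low tumors, and Tcf12 13.34 ± 0.44 and 13.27 ± 0.19 (SD, n = 5 each). The adaptor Ldb1 differed by 0.22 and Gata3 by -0.25.

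Lmo2 measured 8.45 in KO tumor 3 and 5.04, 6.18, 5.35 and 4.21 in the other Lyl1-high tumors, against 6.11, 4.55, 6.30, 5.51 and 4.90 in the Lyl1-low tumors. It was thus high in 1 tumor, and it averaged 11.07 in the 4 tumors left out and 4.66 in thymi. Lmo1 measured 5.12, 3.98, 8.42, 4.13 and 8.14 in Lyl1-high tumors, against 5.83, 4.25, 8.93, 9.91 and 9.08 in Lyl1-low tumors (difference -1.05, adjusted p = 0.687), so high and low tumors were found in both groups. Tal1 and Tal2 were under the filter on low values, with no ranked tumor above 4.14.

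The members of smallest p in this list were Id3, an inhibitor of E proteins induced by T cell receptor signals, Cbfa2t3, a corepressor of the complex, and Ssbp3, a cofactor of LDB1. Id3 averaged 7.18 ± 1.68 in Lyl1-high tumors, 9.00 ± 0.76 in Lyl1-low tumors (SD, n = 5 each) and 11.42 in thymi, with a difference of -1.70 (adjusted p = 0.494). Cbfa2t3 differed by 0.99 and Ssbp3 by 0.40. All 10 tumors lay below the lowest thymus for Id3, 11.13.

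The early thymic progenitor and stem cell list, fixed because LYL1 acts in those cells, had 0 of 20 tested members at an unadjusted p under 0.05 and a median difference of 0.32. Spi1, the myeloid and progenitor Ets factor PU.1, measured 5.16, 5.63, 7.66, 7.05 and 4.59 in Lyl1-high tumors, against 4.55 to 5.31 in Lyl1-low tumors (difference 1.04, adjusted p = 0.494). Mef2c measured 8.36 and 7.91 in KO tumor 3 and HT tumor 7 and 3.55 to 5.51 in the other Lyl1-high tumors, against 3.72 to 6.97 in Lyl1-low tumors. The B cell list mean was 10.12 in KO tumor 3 and 9.23 in HT tumor 7. For Spi1 the high tumors were HT tumor 7 and KO tumor 7, with B cell means of 9.23 and 7.58, while KO tumor 3 lay in the Lyl1-low range. The part of B cells in these values was not tested. Kit, the stem cell factor receptor, averaged 8.40 ± 1.83 in Lyl1-high tumors and 8.44 ± 0.72 in Lyl1-low tumors, and Hhex differed by 0.31. Cd34, Hoxa9 and Hoxa10 were under the filter.

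Genes of cell division made up the lists with the most members at an unadjusted p under 0.05, all of them lower in Lyl1-high tumors, though none passed the adjusted threshold. Of 19 mitosis genes tested, 11 were lower and 0 higher, 18 had a negative difference and the median was -0.67. Of 22 DNA replication genes, 10 were lower and 0 higher, 18 were negative and the median was -0.56. These counts stand beside 4.54% of all genes lower and a median of 0.06. Without the sex covariate 7 mitosis genes were lower, with a median of -0.49, and 11 replication genes, with a median of -0.56. HT tumor 4, 1 of the 2 males that set the sex term, had the lowest mitosis mean of the ranked tumors, 9.55.

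Kif20a, a kinesin of cytokinesis, measured 8.87, 9.49, 9.86, 8.44 and 9.70 in Lyl1-high tumors, against 10.65, 10.33, 10.09, 10.37 and 10.55 in Lyl1-low tumors (difference -1.36, adjusted p = 0.464). Its groups did not overlap, and thymi averaged 10.30, at the Lyl1-low level. Cdk1, the kinase that drives entry into mitosis, differed by -1.0 and Birc5, the survivin gene of the chromosomal passenger complex, by -0.95, both with overlap. Cdc45, part of the replicative helicase, measured 7.29, 8.53, 7.80, 7.03 and 8.53 in Lyl1-high tumors, against 9.74, 8.87, 8.64, 9.20 and 9.12 in Lyl1-low tumors (difference -1.42, adjusted p = 0.464). Those values did not overlap either. Rfc4, a subunit of the clamp loader, differed by -1.41 and Pola1, the catalytic subunit of DNA polymerase alpha, by -0.77.

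The mean over all mitosis genes was 10.57, 11.14, 10.98, 10.43 and 11.11 in Lyl1-high tumors, against 11.33, 11.48, 11.31, 11.34 and 11.51 in Lyl1-low tumors. For the replication genes it was 11.08, 11.35, 10.90, 10.85 and 11.35 in Lyl1-high tumors, against 11.87, 11.49, 11.51, 11.75 and 11.66 in Lyl1-low tumors. Neither mean overlapped between the groups. In the middle tumors, in order of falling Lyl1, the mitosis mean was 9.55, 11.27, 11.38, 11.62 and 11.61. The replication mean was 10.99, 11.31, 11.40, 11.52 and 11.68 in the same order. For mitosis, all middle tumors but HT tumor 4 lay above every Lyl1-high tumor and near or above the Lyl1-low level. The mitosis mean thus did not follow Lyl1 step by step over the ranking. Mki67, a general proliferation marker singled out after the values were seen, differed by -0.06. The 4 tumors left out had the lowest mitosis means of all tumors, 7.80 to 9.48.

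The division genes were read again with RNA quality in view. With the 3'/5' ratio in the model 3 mitosis and 3 replication genes were lower at an unadjusted p under 0.05, and the medians were -0.55 for mitosis, against -0.67 without the ratio, and -0.35 for replication, against -0.56. Without HT tumor 7 and KO tumor 7, the Lyl1-high tumors of highest ratio, 5 and 1 genes were lower and the medians were -0.67 and -0.39, in a fit with fewer tumors. The medians thus stayed negative while fewer genes reached the unadjusted threshold, and the part of RNA quality in the differences was not tested beyond these values.

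**Figure D3:**
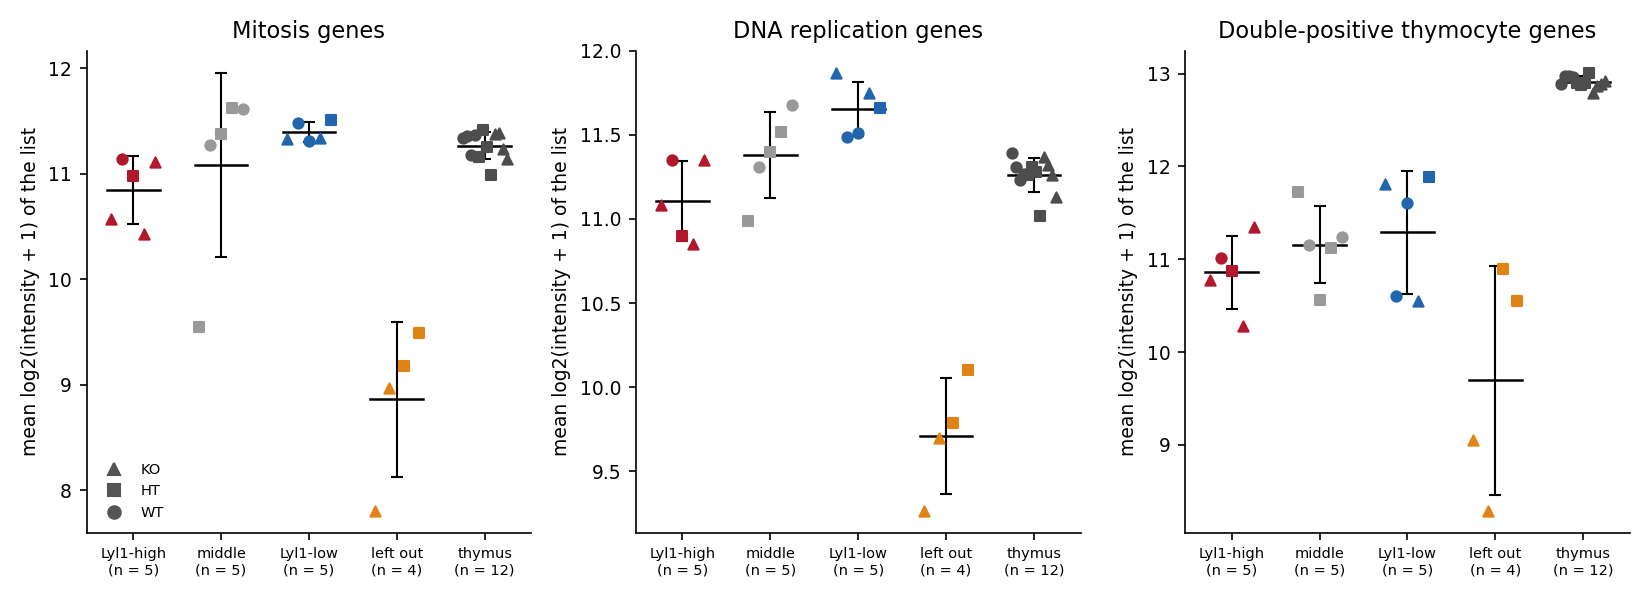
Mean log2(intensity + 1) over the tested mitosis, DNA replication and double-positive thymocyte genes in every array, by rank group, with the tumors left out and the thymi; lines and bars are the mean and SD. The Lyl1-high and Lyl1-low tumors do not overlap for the first 2 lists and do for the third, where all tumors lie below the thymi.

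The lists of T cell maturation had few members at an unadjusted p under 0.05. Of 15 double-positive thymocyte genes (the stage with both coreceptors, which makes up most of a thymus), 2 were lower at an unadjusted p under 0.05 and 0 higher, with a median of -0.48, beside 4.54% of all genes lower. Cd8b1, a chain of the CD8 coreceptor, measured 11.26, 9.90, 10.53, 9.23 and 8.95 in Lyl1-high tumors, against 12.83, 10.44, 12.54, 11.40 and 12.55 in Lyl1-low tumors (difference -1.94, adjusted p = 0.464). The groups overlapped, and every tumor of both was below the lowest thymus, 14.25. Aqp11, a water channel, differed by -1.84, and Slamf1 by 0.54.

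Of 19 Notch pathway genes 1 was higher and 0 lower, 16 were positive and the median was 0.35. Over all genes 6.09% were higher and 55.3% had a positive difference, so the single count is near the background. That gene, the receptor Notch3, averaged 12.19 ± 0.45 in Lyl1-high tumors and 11.28 ± 0.45 in Lyl1-low tumors (SD, n = 5 each, difference 0.83, adjusted p = 0.464), and all 10 tumors exceeded the highest thymus, 9.03. The Notch target Nrarp differed by 0.94 and Myc by -0.61. The T lineage factor list had 1 of 24 higher, Gfi1, a zinc-finger repressor (difference 0.71), and 0 lower. The list of double-negative stages 2 and 3, before CD4 and CD8 appear, had Notch3 alone among 15, and Il7r, the interleukin-7 receptor, differed by 1.58.

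The gamma-delta T cell list, with 6 genes tested, held the widest differences of the lists. Cd163l1, a scavenger receptor of gamma-delta T cells, measured 11.36, 8.07, 12.15, 8.57 and 4.39 in Lyl1-high tumors, against 5.30, 4.61, 4.92, 7.47 and 3.83 in Lyl1-low tumors (difference 3.88, SE 1.70, adjusted p = 0.464). KO tumor 1 lay among the Lyl1-low tumors, so the groups overlapped. Etv5, an Ets factor of the same list, differed by -2.43, in the opposite direction.

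Among survival and stress genes, 3 of 17 p53 targets were higher and 0 lower (median 0.34), beside 6.09% higher and 4.54% lower over all genes. Bbc3, the gene of the death protein PUMA, averaged 7.77 ± 0.96 in Lyl1-high tumors and 6.45 ± 0.26 in Lyl1-low tumors (SD, n = 5 each, difference 1.23), the nuclease gene Aen differed by 0.87 and the cyclin gene Ccng1 by 0.48, each with overlap and an adjusted p of 0.464. Of 4 anti-apoptotic BCL2 genes, Mcl1 was higher (0.75). Of 10 pro-apoptotic ones, Bbc3 was higher and Bid, which links death receptors to mitochondria, was lower (-0.49, with no overlap). Heat shock, immediate early, cell cycle inhibitor and NDR pathway lists were among the 12 of 32 lists with 0 members at an unadjusted p under 0.05. Over all lists 430 different genes were tested and 0 passed the adjusted threshold.

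**Figure D4:**
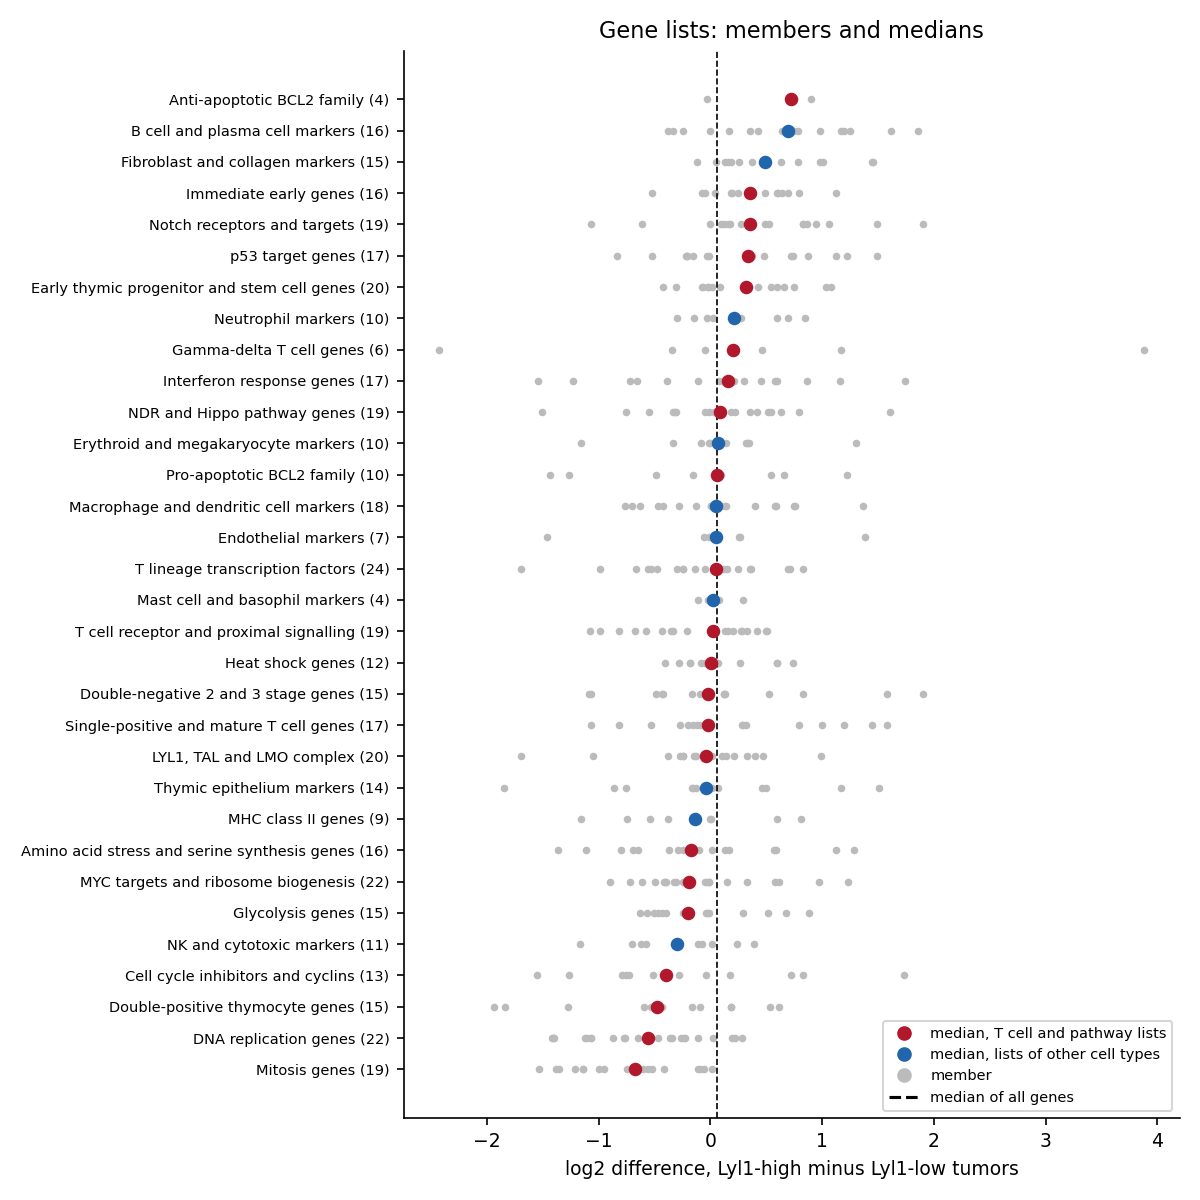
Log2 difference, Lyl1-high minus Lyl1-low, of each tested member (grey) and the median (coloured) of 32 gene lists, with the number tested in brackets and the median of all genes, 0.06, dashed. The mitosis and DNA replication medians, -0.67 and -0.56, are the lowest.

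None of the markers of other cell types passed the adjusted threshold. Of 16 B cell and plasma cell genes 0 reached an unadjusted p of 0.05, and their median difference was 0.69. The mean over this list ranged over 6.43 to 10.12 in Lyl1-high tumors and 6.19 to 8.50 in Lyl1-low tumors, against 11.31 to 12.19 in the 4 tumors left out. KO tumor 3 at 10.12 and HT tumor 7 at 9.23 were the highest of the ranked tumors, above all Lyl1-low tumors. Cd79b, a chain of the B cell receptor complex, differed by 1.61, the B lineage factor Ebf1 by 1.25 and Cd22 by 1.86. None of the list's genes separated the groups, and their part in the Lyl1 ranking was not tested.

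Of 15 fibroblast and collagen genes 14 had a positive difference (median 0.49) and 1 was higher, a count near the background, where 6.09% of all genes were higher and 55.3% positive. That gene was Pdgfrb, a platelet-derived growth factor receptor. It averaged 12.77 ± 0.84 in Lyl1-high tumors, 11.41 ± 0.71 in Lyl1-low tumors (SD, n = 5 each, adjusted p = 0.464) and 6.28 in thymi. The list mean ranged over 5.59 to 8.25 in Lyl1-high tumors and 5.84 to 6.76 in Lyl1-low tumors. Of 18 macrophage and dendritic cell genes, Marco, a macrophage scavenger receptor (1.36), and Cd14 (0.76) were higher, with list means of 6.11 to 7.71 in Lyl1-high tumors and 6.04 to 7.40 in Lyl1-low tumors. Of 7 endothelial genes, Eng was higher (1.38) and Egfl7 lower (-1.46). Egfl7 had no overlap between the groups, and 5 of 5 Lyl1-low and 3 of 5 Lyl1-high tumors exceeded the highest thymus, 5.63. Neutrophil, mast cell, NK cell, MHC class II and thymic epithelium lists had 0 genes at an unadjusted p under 0.05, and of 10 erythroid and megakaryocyte genes Epor was lower (-1.16).

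Over the 15 ranked tumors the genes most like Lyl1 were Atp10d (r = 0.869), Usp20 (0.868), Ddhd2 (0.868), Trim68 (0.866), Zfp956 (0.860), Tmem229b (0.851), BC029722 (0.839), Zfp715 (0.837), Zmym5 (0.836) and Neil1 (0.833), by Pearson's r of the log2 values. Ppp1r1b had the most opposite pattern (r = -0.882), and its r was -0.870 without HT tumor 2 and KO tumor 2, the tumors farthest from the median Lyl1. For Atp10d it was 0.825 without them. These values share the tumors and their RNA quality. The r with the 3'/5' ratio was 0.548 for Atp10d, 0.294 for Usp20, 0.683 for Ddhd2 and -0.344 for Ppp1r1b. Among the genes most like or most opposite to Lyl1 it was strongest for Nsmce1 (-0.770), Zfp956 (0.698) and Syngr1 (-0.684). Nsmce1 and Syngr1 are among the lower genes of smallest p given above, and the part of RNA quality in their differences was not tested.

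The genes around Lyl1 were read in gene order, 10 on each side. Of the 17 tested, 1 was higher and 1 lower at an unadjusted p under 0.05, and the median difference was 0.43. These counts are near the shares over all genes, 6.09% higher and 4.54% lower. The higher one was Nfix, a nuclear factor I transcription factor and the next gene, chosen here after its values were seen. It measured 8.48, 7.66, 7.06, 7.60 and 4.44 in Lyl1-high tumors, against 3.40, 6.20, 3.92, 3.50 and 4.87 in Lyl1-low tumors (difference 2.73, SE 0.80, adjusted p = 0.464). All but KO tumor 1 of the Lyl1-high tumors lay above all Lyl1-low tumors, and 4 of the 5 were above the highest thymus, 6.44. Its 4 other probe sets had differences of 0.27 to 1.23. Trmt1, a tRNA methyltransferase gene on the other side of Lyl1, differed by 1.18 (adjusted p = 0.465), while another of its probe sets gave -1.70.

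Genes at an unadjusted p under 0.05 were unevenly spread over chromosomes, a description chosen after the values were seen. On chromosome 14, 11.1% of the 470 genes tested were higher and 1.28% lower in Lyl1-high tumors. On chromosome 15, 1.83% of 547 were higher and 11% lower, and on chromosome 12, 0.835% of 479 were higher and 7.72% lower. Chromosome 6 (1.94% of 722 higher, 7.62% lower) and chromosome 19 (9.66% of 476 higher, 1.89% lower) were uneven as well. The mean log2 difference from thymus over chromosome 15 was 0.65, 0.43, 0.56, 0.25 and -0.03 in Lyl1-high tumors, against 0.38, 0.53, 0.41, 0.70 and 0.13 in Lyl1-low tumors. On chromosome 12 it was -0.36 in KO tumor 1 and 0.03 to 0.23 in the other Lyl1-high tumors, against 0.02 to 0.19 in Lyl1-low tumors. KO tumor 1, the lowest in Lyl1 of its group, thus stood apart on chromosome 12, and on chromosome 14 it was at 0.39, the highest of the ranked tumors. The other Lyl1-high tumors were at -0.01 to 0.17 on chromosome 14 and the Lyl1-low tumors at -0.11 to 0.29, so the groups overlapped.

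**Figure D5:**
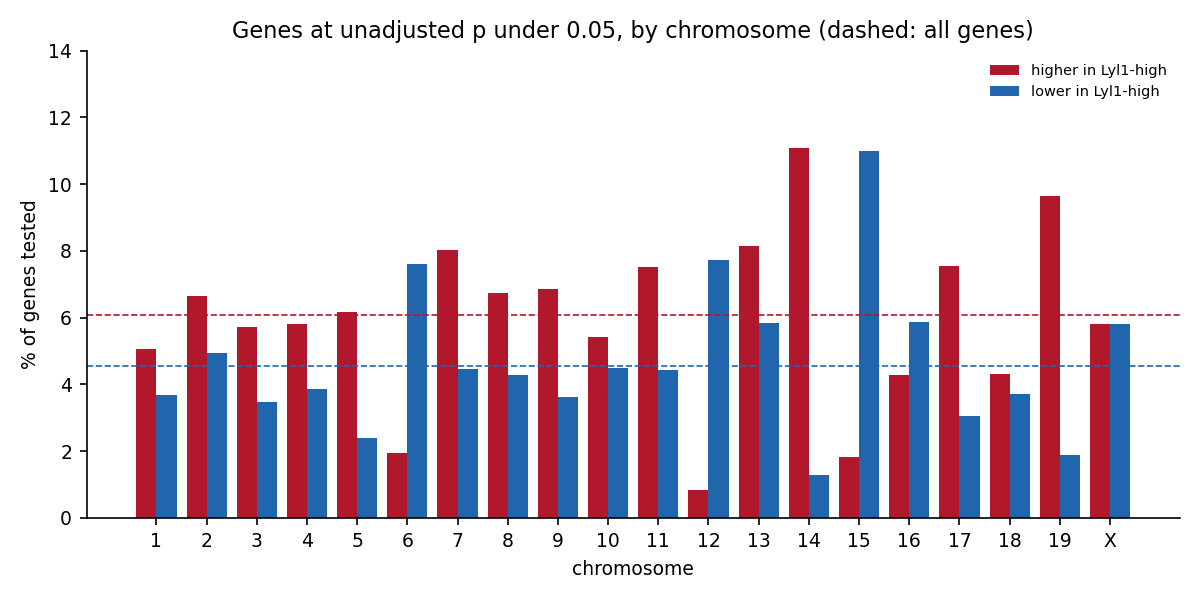
Share of tested genes on each chromosome that were higher (red) or lower (blue) in Lyl1-high tumors at an unadjusted p under 0.05, in percent; dashed lines give the shares over all genes, 6.09% and 4.54%. Chromosome 14 stands out for genes higher and chromosome 15 for genes lower.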

How the data were processed

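The authors deposited normalized intensity values, 1 per probe set and array on a linear scale, made with GCRMA per the submitters' processing notes, which give no version. The table held 45101 probe sets, of which 34957 named a single gene in the platform annotation and were used. Values became log2(intensity + 1), and the probe set with the highest mean on the 31 arrays stood for each gene. Genes with a mean above the 25th percentile, 3.65, were kept (13644 of 18193). The 3 rank groups of 5 tumors were fitted with limma 3.58.1 (lmFit, eBayes) in R 4.3.3, with sex as a covariate, 11 residual degrees of freedom, Benjamini-Hochberg adjustment over all 13643 other genes and a threshold of 0.05. List members count as higher or lower at an unadjusted p under 0.05. The RNA ratio was compared by a 2-sided exact permutation test.

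Members and lists were chosen with earlier results of these data known. The rule for named genes took the genes past the threshold, filled to 10 per direction by smallest p, up to 3 genes per list, the 10 genes most like Lyl1, Stk38 and Stk38l. Cd3e, Mki67, Nfix, Trmt1, Dgkh, the chromosomes and the omission of HT tumor 7 and KO tumor 7 were chosen after values were seen. On simulated data for this comparison (13643 genes), 72, 62 and 66 genes were given log2 changes of 1, 2 and 4. Of them 38.9%, 77.4% and 90.9% were recovered, with 9 false calls. In the measured arrays 1571 genes differed by over 1 log2 unit either way, and 1 gene passed. The share of true changes recovered in the measured arrays was not tested. The alternatives varied the samples, covariates, group size, pseudocount, filter, probe sets, normalization and variance model.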

Additional observations from a re-analysis of the deposited data

Results flagged for a closer look

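In groups of 5 tumors, 4 of 69 sets of values examined (the named genes and list means, by rank group) had a tumor set apart from the rest by a gap large against the whole range. Chance marks about 1 in 20 groups. Syngr1 was 5.26 in KO tumor 1, against 4.25 in the nearest Lyl1-high tumor (log2 scale). Among the middle tumors, Wdr13 was 10.36 in HT tumor 4 (nearest 9.50), Slc6a13 was 7.45 in HT tumor 5 (nearest 4.44), and the mean of the mitosis genes was 9.55 in HT tumor 4 (nearest 11.27).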

How the results depend on the processing

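The count of genes past the threshold, 1 as reported, was 0 with the 10 arrays alone, with genotype as a covariate, with Lyl1 as a continuous term, with no filter, with the filter at the 50th percentile (where Ppp1r1b was not tested), with all probe sets, with a trended and robust variance, and with the replicate block. It was 219 (108 higher, 111 lower) with all 19 tumors ranked, a ranking that mixes in the tumors of high B cell signal, and 0 to 1 as each tumor was left out in turn. Where 1 gene passed, it was not always Ppp1r1b: it was Dgkh (-4.53, adjusted p = 0.0130) with the 3'/5' ratio in the model, Mixl1 with 4 against 4 (-2.89) and without KO tumor 5 (-2.88, adjusted p = 0.00794), and Gpx7 (-3.78) with 6 against 6. Dgkh was at -2.54 in the reported fit, and its other probe sets gave -1.32 and 0.35. Mixl1 entered these fits only because its Lyl1-low values took it past the filter. The difference of Ppp1r1b ran from -3.20 with 19 tumors to -1.90 with a pseudocount of 16, with adjusted p from 9.5e-06 to 0.331. Leaving out a tumor in turn, it stayed under the threshold without KO tumor 7 (0.00402) and KO tumor 1 (0.0420) and was 0.0844 to 0.234 otherwise. None of the 20 named genes turned sign in any setting run, and 12 of them were tested at the 50th percentile filter. They were chosen by their p in these same tumors, so a constant sign was likely beforehand. The setting with all probe sets scored each gene on the probe set of the reported fit, not on its other probe sets. The causes of these shifts were not tested.

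The difference in the 3'/5' ratio ranged over 0.98 to 2.01 as each tumor was left out (exact permutation p = 0.0317 without KO tumor 1, 0.0556 to 0.175 otherwise) and was 0.53 without HT tumor 7 and KO tumor 7 (p = 0.375). The mitosis count, 11 as reported, was 18 with 19 tumors and 7 without the sex covariate, and 6 without KO tumor 3 or KO tumor 7. The replication count, 10 as reported, was 19 with 19 tumors, 5 without KO tumor 5 and 6 without HT tumor 2. Both medians stayed negative in every setting. Of 10 pairs of tumors with the same number in the title, 1 had a correlation of deviations over 0.1 (range -0.349 to 0.121). The deviations were taken from means of 5 tumors, which lowers the correlation of tumors in the same rank group. These values therefore cannot decide whether the numbers pair the samples. With the replicate block Ppp1r1b was at -2.56 (limma, adjusted p = 0.0516).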
